A study of Mus musculus with 28 samples.

Results

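Pomc and Cartpt, 2 of the 55487 genes in the count table, were followed through all 28 RNA libraries of a mouse hypothalamus experiment. They were taken by gene name, without regard to their values, and Gh and Prl were read in every lysate as a check for pituitary tissue. All animals carried the LepRb eGFP-L10a reporter, in which a GFP-tagged ribosomal protein marks the ribosomes of cells that express the long leptin receptor. Each of 14 hypothalamic lysates gave a bead library, the RNA caught with GFP antibody, and a depleted library, the RNA left in the supernatant. The mice were 10 to 13 weeks old, of both sexes, and had food removed at lights-on. They then received metreleptin at 5 mg/kg intraperitoneally or vehicle, which is named PBS in the sample labels and saline in the protocol. The lysates comprised wild-type (WT) reporter mice 3 h after vehicle (n = 4) or leptin (n = 3), WT mice 10 h after vehicle (n = 1) or leptin (n = 3), and reporter mice homozygous for the leptin mutation Lep ob, written ob/ob, 10 h after vehicle (n = 2) or leptin (n = 1). The labels do not say whether a lysate came from 1 animal or several, so p-values measure the spread between lysates. WT 3 h, WT 10 h and ob/ob libraries were sequenced in 3 separate runs, so the run cannot be told apart from time within WT or from genotype at 10 h.

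Pomc encodes proopiomelanocortin, a prohormone that is cut into ACTH, melanocyte-stimulating hormones and beta-endorphin. Cartpt encodes the precursor of cocaine- and amphetamine-regulated transcript (CART) peptides. In the arcuate nucleus many POMC neurons also make CART, and their melanocortins act on MC3R and MC4R to lower food intake, opposed by AgRP from neighbouring neurons. Leptin is known to act on POMC neurons through its long receptor and STAT3. Pomc is also very abundant in corticotropes and melanotropes of the pituitary, and Cartpt is also made by hypothalamic neurons outside the arcuate nucleus.

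On GRCm38, GENCODE M21 places Pomc (ENSMUSG00000020660) on the plus strand at chr12:3954951-3960642. Cartpt (ENSMUSG00000021647) lies on the minus strand at chr13:99898489-99901091. Neither gene overlaps another annotated gene. The nearest gene to Pomc, Efr3b, is 1912 bases away on the opposite strand. The library kit does not keep strand. The coding stretches below are shown because they are what the counted RNA carries: the alpha-MSH region of Pomc and the CART peptide region of Cartpt. Capitals mark codons for Lys-Arg, Lys-Lys and Arg-Arg pairs or runs of them, where prohormone convertases can cut. The capitals lie at both ends of the Pomc stretch, and at and near the start of the Cartpt stretch. Arg-Lys pairs were not searched for, and such a pair further along the Cartpt stretch is in lower case. The Pomc stretch, at chr12:3960124-3960183, was located from the second of 3 copies of the tetrapeptide core that melanocortins share. The Cartpt stretch runs from codon 80 to codon 129, the last before the stop, across 2 exons within chr13:99898922-99900001.
Pomc coding stretch: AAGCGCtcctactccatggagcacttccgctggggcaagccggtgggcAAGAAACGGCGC
Cartpt coding stretch: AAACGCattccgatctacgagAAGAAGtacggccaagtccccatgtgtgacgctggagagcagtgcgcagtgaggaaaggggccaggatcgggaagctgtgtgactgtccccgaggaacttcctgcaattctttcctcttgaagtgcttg

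Upstream sequence is shown because both RNAs were lower in ob/ob than in WT bead libraries. The RefSeq window for Pomc is the 250 bases before its start, chr12:3954695-3954944 on GRCm38.p6, with the letters TATAAA in capitals 25 bases before the start. For Cartpt, 30 bases at chr13:99900777-99900806 on the minus strand are given, with the cyclic-AMP response element letters TGACGTCA in capitals, beginning 112 bases before the RefSeq start. A longer GENCODE transcript of Cartpt starts upstream of this site.
Pomc upstream: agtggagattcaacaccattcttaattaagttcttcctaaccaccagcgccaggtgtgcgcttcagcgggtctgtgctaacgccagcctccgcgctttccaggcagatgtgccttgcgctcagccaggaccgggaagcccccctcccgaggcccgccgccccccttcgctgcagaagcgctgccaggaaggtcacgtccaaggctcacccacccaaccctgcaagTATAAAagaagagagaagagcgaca
Cartpt CRE window: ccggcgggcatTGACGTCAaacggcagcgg

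Searched on both strands of the 250 bases before 32851 RefSeq starts, TGACGTCA occurred in 1.55% of windows, once in that of Cartpt and not in that of Pomc. TATAAA occurred in 12.4%, once in that of Pomc and not in that of Cartpt. The STAT letters TTCNNNGAA occurred in 7.02% and in neither window. These matches describe letters only.

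Total counts ran from 21277982 to 42267040 in bead libraries and from 19649105 to 41804049 in depleted libraries. Even the lowest member values rested on 157 counts, for Pomc in the depleted library of ob/ob vehicle lysate 1. Levels below are in CPM, counts scaled to a library total of 1000000 after normalisation by trimmed means (TMM) over all 28 libraries. All 6 astrocyte, 6 oligodendrocyte and 6 microglia markers were lower in beads than in depleted RNA, where 39.3% of all 19682 genes tested were lower. The neuronal markers Snap25, Syt1, Rbfox3, Tubb3, Stmn2 and Elavl4 were present in every group, with a sum of 5862 to 7453 CPM in beads and 5408 to 6458 CPM in depleted libraries.

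In 3 lysates the pituitary hormone RNAs stood far above the rest. Gh, growth hormone, was at 235 CPM in the depleted library of WT 3 h vehicle lysate m3, 1256 CPM in that of WT 3 h leptin lysate f2 and 121 CPM in that of the ob/ob leptin lysate. The other 11 depleted libraries held 0 to 1.52 CPM of Gh. Prl, prolactin, was at 39.5, 1754 and 19.1 CPM in the same 3 libraries, and at 0.0454 to 2.29 CPM in the others. Pou1f1, the transcription factor of somatotropes and lactotropes, ran from 0.424 to 7.86 CPM in the 3 lysates and reached at most 0.0609 CPM in the other depleted libraries. Of the 9 pituitary hormone and lineage genes checked, Lhb was at 0 in all 28 libraries. The corticotrope and melanotrope list said less, because the hypothalamus also expresses most of its 6 genes. Its summed level in depleted libraries, 171 to 284 CPM, was dominated by Pcsk2, and Avpr1b, the corticotrope vasopressin receptor, had at most 3 counts in any library. Depleted Tbx19 and Pax7 of this list were highest in f2, at 3.42 and 4.84 CPM. In m3 they were 1.31 and 1.05 CPM and in the ob/ob leptin lysate 0.754 and 0.896 CPM. The remaining depleted libraries held 0.397 to 0.941 CPM of Tbx19 and 0.832 to 2.28 CPM of Pax7.

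Depleted Pomc was highest in the same 3 lysates relative to others of their genotype. It was 75.6 CPM in m3, 474 CPM in f2 and 47.6 CPM in the ob/ob leptin lysate. The other WT depleted libraries held 16.5 to 36.3 CPM and the 2 ob/ob vehicle ones 7.45 and 6.07 CPM, so within each genotype the pituitary-rich lysates lay above all others. Across the 14 depleted libraries, Prl was the gene with the most similar log2 CPM profile to Pomc (Pearson r = 0.90 among 11766 other genes), followed by Fam114a1, Sntb1, Copg1 and Ccdc71 (r = 0.85, 0.84, 0.84 and 0.83). Depleted Cartpt did not share this order: it was 54.3, 68.1 and 40.5 CPM in the 3 lysates and 42.7 to 102 CPM in the other 11. Its closest profiles in depleted libraries were Nxph4, Lrfn1, Men1, Slc36a1 and Cdh20 (r = 0.84 to 0.86), and Pomc ranked 3526th (r = 0.30). These correlations describe libraries that share composition and depth.

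**Figure D1:**
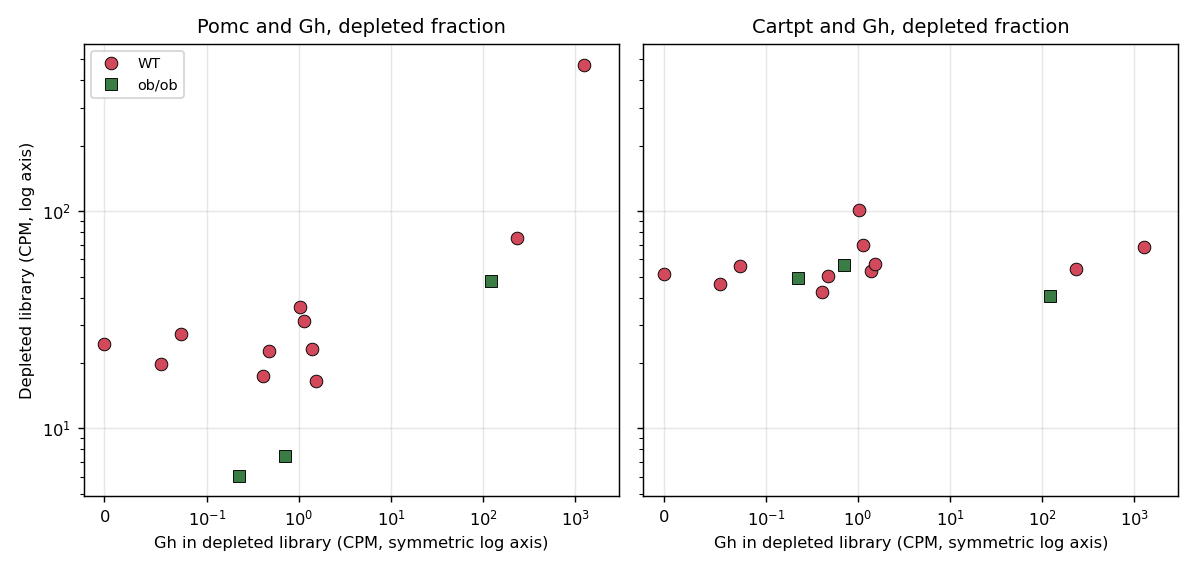
Pomc (left) and Cartpt (right) against Gh in the 14 depleted libraries, in CPM (y log axis, x symmetric log axis), with circles for WT and squares for ob/ob. The 3 lysates above 100 CPM of Gh carry 47.6 to 474 CPM of Pomc, while Cartpt there stays between 40.5 and 68.1 CPM.

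Pituitary RNA was also present in the beads of these lysates, at a lower level. Gh was 0.24 times its depleted level in the beads of m3, 0.44 times in f2 and 0.18 times in the ob/ob leptin lysate. Prl gave nearly the same values, 0.25, 0.44 and 0.18. Multiplying depleted Pomc by the larger of these ratios gives 18.5, 207 and 8.61 CPM, or 2.61%, 25.5% and 5.16% of the Pomc in the 3 bead libraries. That product counts all depleted Pomc as pituitary, and which part of bead Pomc has that source was not tested.

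Pomc and Cartpt were both more abundant in beads than in the depleted RNA in all 14 lysates. The ratios ran from 1.71 to 50.6 for Pomc and from 2.13 to 14.4 for Cartpt. Bead Pomc in WT 3 h vehicle lysates m1, m3, f1 and f3 was 1086, 711, 842 and 737 CPM, against 27.2, 75.6, 36.3 and 23.1 CPM in the depleted RNA. In WT 3 h leptin lysates m24, f2 and f4 it was 775, 810 and 649 CPM in beads and 31.2, 474 and 17.4 CPM in depleted RNA. The bead-to-depleted ratio was thus 23.2 to 39.95 in 3 vehicle and 24.8 to 37.3 in 2 leptin lysates at 3 h, but 9.41 in m3 and 1.71 in f2, the 2 pituitary-rich ones. At 10 h, bead Pomc was 745 CPM in the WT vehicle lysate and 853, 925 and 1233 CPM in WT leptin lysates 1, 2 and 3. Their depleted libraries held 16.5, 22.7, 19.9 and 24.4 CPM, giving ratios of 37.7 to 50.6. In ob/ob, beads held 104 and 61.2 CPM after vehicle and 167 CPM after leptin. The ratios there were 13.9, 10.1 and 3.50, the last in the pituitary-rich lysate.

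With edgeR's quasi-likelihood test and lysate as a term, Pomc was 20.8-fold higher in beads (log2 difference 4.38, SE 0.46, Benjamini-Hochberg adjusted p = 7.9e-07, n = 14 lysates). Without the 3 pituitary-rich lysates the log2 difference was 4.95 (SE 0.24, adjusted p = 3.95e-09 by the same test, n = 11). Most tested genes differed in this comparison: 77.9% of 19682 passed, 38.6% higher and 39.3% lower in beads. A call alone therefore says little, and the sizes are what the data add.

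Cartpt was 8.97-fold higher in beads (log2 difference 3.17, SE 0.23, adjusted p = 1.26e-08, edgeR). In WT 3 h vehicle lysates m1, m3, f1 and f3 its bead level was 732, 784, 733 and 480 CPM, and its depleted level 56.2, 54.3, 102 and 52.9 CPM. In WT 3 h leptin lysates m24, f2 and f4, beads held 795, 542 and 503 CPM and depleted libraries 69.6, 68.1 and 42.7 CPM. At 10 h the WT vehicle lysate had 580 CPM in beads and 57.3 CPM in depleted RNA, and the WT leptin lysates 692, 624 and 723 CPM against 50.5, 46.3 and 51.5 CPM. The WT ratios all lay between 7.20 and 14.4. In ob/ob beads Cartpt was 288 and 105 CPM after vehicle and 163 CPM after leptin, with 56.7, 49.5 and 40.5 CPM in the depleted libraries and ratios of 5.09, 2.13 and 4.02. Every WT bead library exceeded every ob/ob bead library for both genes, while the depleted Cartpt ranges of the genotypes overlapped. The share of all genes with bead levels separated in this way is not given.

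**Figure D2:**
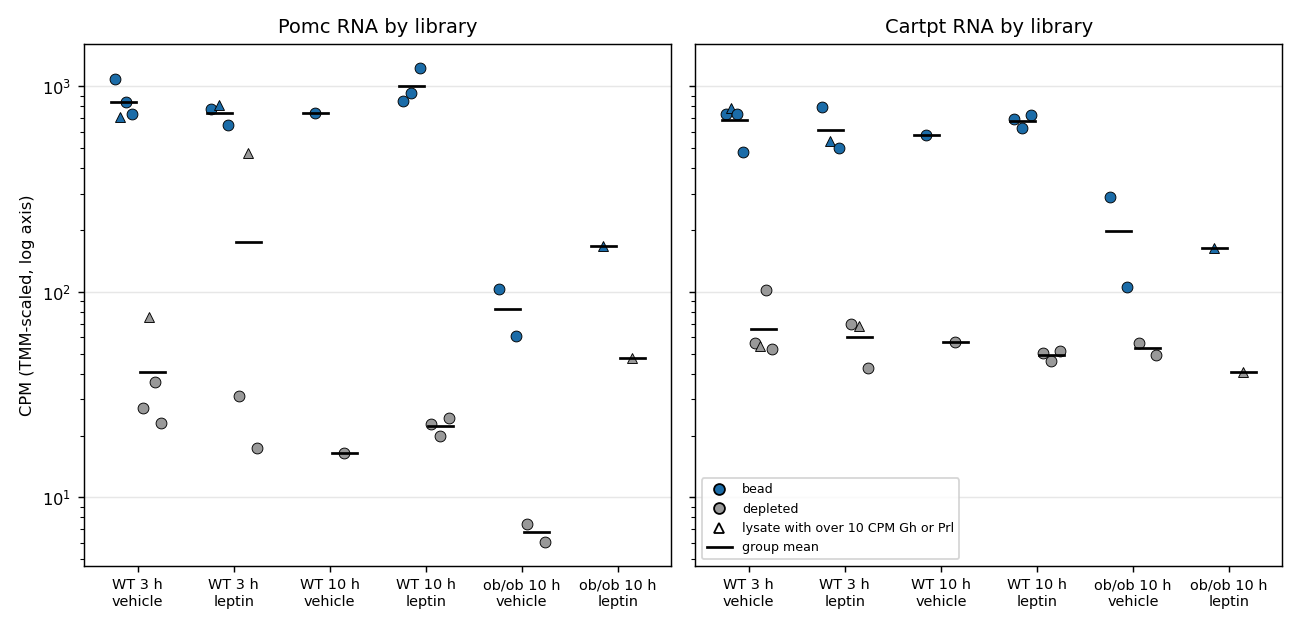
Pomc (left) and Cartpt (right) in every library, in TMM-scaled CPM on a log axis, by genotype, time and treatment, with beads in blue, depleted RNA in grey, group means as bars and the 3 pituitary-rich lysates as triangles. WT beads lie at 649 to 1233 CPM for Pomc and 480 to 795 CPM for Cartpt, ob/ob beads at 61.2 to 167 and 105 to 288 CPM.

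Per kilobase of annotated exon (1318 bases for Pomc, 1277 for Cartpt), Pomc exceeded Cartpt in 9 of 11 WT bead libraries, with a median ratio of 1.25 (range 0.88 to 1.65). In ob/ob beads the Pomc-to-Cartpt ratio was 0.35 to 0.56 after vehicle and 0.99 after leptin. In depleted RNA the order was the other way, with a median WT ratio of 0.43. It exceeded 1 only in the 3 pituitary-rich lysates, up to 6.74 in f2.

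The order of the 6 bead groups by mean Pomc was WT 10 h leptin (1004 ± 202 CPM, SD, n = 3), WT 3 h vehicle (844 ± 171, n = 4), WT 10 h vehicle (745, n = 1), WT 3 h leptin (745 ± 84.6, n = 3), ob/ob leptin (167, n = 1) and ob/ob vehicle (82.4 ± 29.99, n = 2). Neighbours among the 4 WT groups overlapped or lay within 1 SD. The ob/ob leptin value lay above both ob/ob vehicle values. For Cartpt the order was WT 3 h vehicle (682 ± 137), WT 10 h leptin (680 ± 50.5), WT 3 h leptin (614 ± 158), WT 10 h vehicle (580), ob/ob vehicle (197 ± 129) and ob/ob leptin (163), and only the step from WT to ob/ob exceeded the spread. In these WT beads no correlation of the 2 genes passed a test, and so few libraries cannot show that coupling is absent. Over the 7 WT 3 h bead libraries log2 CPM of Pomc and Cartpt gave Pearson r = 0.41 (exact permutation p = 0.405) and Spearman rho = 0.21 (exact permutation p = 0.662). Without the 2 libraries farthest from the Pomc median, r was 0.015. Over all 11 WT bead libraries r was 0.43 (permutation p = 0.187, two-sided) and rho 0.28 (p = 0.404), and the 4 p-values adjusted together were 0.540 or higher. WT and ob/ob libraries formed separate clusters, so no pooled r is given as a test.

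As a description over all 14 bead libraries, the profiles most like that of Pomc were Kptn, Dnah1, Rnps1-ps, Cartpt and Csad (r = 0.95, 0.94, 0.93, 0.93 and 0.93 of 11542 other genes). Those most like Cartpt were Kptn, Katnal2, Pomc, Atp6v0c-ps2 and Lman2l (r = 0.95, 0.94, 0.93, 0.91 and 0.89). Over the 11 WT libraries alone the same pairs gave r from -0.18 to 0.54, lower than over all 14 in each case. The 3 ob/ob libraries added to them form their own sequencing run.

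Leptin was then compared with vehicle within time and genotype. At 3 h in WT beads neither member passed the test: Pomc ranged from 711 to 1086 CPM after vehicle and 649 to 810 CPM after leptin, and the 2 ranges overlapped. The log2 difference was -0.17 for Pomc (SE 0.19, 95% interval -0.58 to 0.23, adjusted p = 0.844, edgeR) and -0.14 for Cartpt (SE 0.29, interval -0.78 to 0.49, adjusted p = 0.929). The Pomc value was -0.031 without vehicle lysate m1 and -0.065 without leptin lysate f4. The Cartpt value was 0.00070 without f4 and 0.028 without the pituitary-rich lysates. In all, 4 of 18212 genes passed (0.022%).

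At 10 h bead Pomc was higher after leptin within each genotype, without passing the test across all genes. The lysates were 3 against 1 in WT and 1 against 2 in ob/ob. In WT beads all 3 leptin lysates (853 to 1233 CPM) exceeded the single vehicle lysate (745 CPM), a log2 difference of 0.43 (SE 0.29, adjusted p = 0.902, edgeR). In ob/ob beads the single leptin lysate (167 CPM) exceeded both vehicle lysates (61.2 and 104 CPM), a log2 difference of 1.03 (SE 0.30, 95% interval 0.39 to 1.67, unadjusted p = 0.00381, adjusted p = 0.999). In that lysate Gh in beads was 21.8 CPM, against 0.0442 and 0.118 CPM in the vehicle lysates. Averaged over genotypes, the Pomc difference was 0.73 (SE 0.21, interval 0.28 to 1.18, adjusted p = 0.395, edgeR), when 4 of 18212 genes passed (0.022%), and 5 passed in ob/ob alone (0.0275%). DESeq2 gave 0.74 with an adjusted p of 0.0788. Cartpt at 10 h differed by 0.23 in WT (SE 0.44) and -0.26 in ob/ob (SE 0.47), and by -0.02 averaged (SE 0.32, adjusted p = 0.992, edgeR). Its ob/ob leptin value, 163 CPM, lay between the 2 vehicle values.

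The leptin difference in bead Pomc was larger at 10 h than at 3 h by 0.90 on the log2 scale (SE 0.28, unadjusted p = 0.00671, adjusted p = 0.792, edgeR), which did not pass the test. It was larger in ob/ob than in WT at 10 h by 0.60 (SE 0.41, adjusted p = 0.99996, edgeR). For Cartpt these differences of differences were 0.13 (SE 0.43) and -0.49 (SE 0.65). Over all strata together, leptin minus vehicle was 0.24 for Pomc (SE 0.19, adjusted p = 0.651) and -0.08 for Cartpt (SE 0.21, adjusted p = 0.893), with 4 of 18212 genes called (0.022%). Without the pituitary-rich lysates both turned, to -0.028 for Pomc and 0.10 for Cartpt. The Pomc value was 0.0030 without the ob/ob leptin lysate and 0.13 without ob/ob vehicle lysate 2, and the Cartpt value was 0.079 without ob/ob vehicle lysate 1.

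Glial markers in the beads had lower values after leptin. All 6 astrocyte, 6 oligodendrocyte and 6 microglia markers went this way over all strata, with list medians of -0.52, -0.49 and -0.81 against 0.01 for all genes. None of these markers passed the test, which 0.022% of all genes passed. The summed astrocyte markers ran from 129 to 379 CPM in vehicle beads and 78.6 to 229 CPM in leptin beads. With the mean glial marker level as a covariate, the Pomc difference was -0.16 at 3 h and 0.76 at 10 h.

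In depleted RNA the Pomc difference after leptin changed sign at 3 h and over all strata without the pituitary-rich lysates. It was 2.10 at 3 h (SE 1.03, adjusted p = 0.573, edgeR), 1.63 at 10 h (SE 1.31, adjusted p = 0.762) and 1.85 over all strata (SE 0.75, adjusted p = 0.270). Without those 3 lysates it was -0.26 at 3 h (SE 0.25, adjusted p = 0.908) and -0.01 over all strata (SE 0.23, adjusted p = 0.994). The 3 h WT difference turned to -0.75 when f2 alone was left out. The 10 h difference could not be fitted without the ob/ob leptin lysate. Depleted WT libraries at 10 h, none of them pituitary-rich, held 19.9 to 24.4 CPM of Pomc after leptin and 16.5 CPM after vehicle (n = 1). Cartpt in depleted RNA differed by -0.14 at 3 h (SE 0.25), -0.30 at 10 h (SE 0.29) and -0.21 over all strata (SE 0.18), none past the test. At 10 h 1 of 19115 genes passed (0.00523%) and over all strata 119 passed (0.623%), but 1 without the pituitary-rich lysates. The leptin difference in beads minus that in depleted RNA was -0.84 for Pomc at 3 h (SE 1.09; 0.42 without f2) and -0.88 at 10 h (SE 1.12), and -0.04 (SE 0.31) and 0.38 (SE 0.34) for Cartpt, with 0.0102% of genes called at 3 h.

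Several of these comparisons called no gene at all (0%) with edgeR. This held for leptin in WT beads at 10 h, where 879 genes had an unadjusted p under 0.05, limma voom called 0 and DESeq2 called 6. It also held for leptin in depleted RNA at 3 h (1813 unadjusted, voom 0, DESeq2 62) and for the 10 h difference between beads and depleted RNA (1329, 0 and 50). The 2 differences of leptin differences in beads gave 957, 0 and 6 for time and 251, 0 and 1 for genotype. The comparison of 10 h with 3 h in WT beads gave 3224, 0 and 463, but there edgeR called 166 genes without the pituitary-rich lysates and 231 without m3 alone.

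ob/ob beads held 7.24-fold less Pomc than WT beads at 10 h, and 3.44-fold less Cartpt. The 3 ob/ob Pomc values, 61.2 to 167 CPM, lay below the 4 WT values, 745 to 1233 CPM, without overlap. The log2 difference averaged over vehicle and leptin was -2.86 (SE 0.23, 95% interval -3.36 to -2.36, adjusted p = 0.000127, edgeR, n = 3 against 4). Cartpt was 105 to 288 CPM in ob/ob and 580 to 723 CPM in WT, also without overlap, with a log2 difference of -1.78 (SE 0.34, interval -2.52 to -1.05, adjusted p = 0.047). In the same comparison 0.472% of 18212 genes passed, 0.126% higher and 0.346% lower in ob/ob. The share of all genes without overlap is not given, so here and below lack of overlap serves as description only. In RNA caught with GFP antibody from many cells, fewer cells of a type, less RNA per cell and differences in capture or run cannot be told apart.

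The Pomc call held in every leave-one-out fit that could be made, at -3.07 to -2.69. The Cartpt call was lost in 8 of 12 such fits (adjusted p 0.0547 to 0.104), namely without WT 3 h vehicle m1, m3 or f1, WT 3 h leptin f2 or f4, or any WT 10 h leptin lysate. For the vehicle groups within the same fit, 2 ob/ob lysates against 1 WT 10 h lysate, the differences were -3.16 for Pomc and -1.54 for Cartpt. The Cartpt value did not pass the test. The spread in that comparison comes from all 6 groups of the fit.

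In depleted RNA the genotypes did not differ past the test. The averaged difference was -0.08 for Pomc (SE 1.30, interval -3.06 to 2.90) and -0.18 for Cartpt (SE 0.29, interval -0.83 to 0.47), when 5.57% of 19115 genes passed. The Pomc mean takes in the pituitary-rich ob/ob leptin lysate at 47.6 CPM. The 2 ob/ob vehicle libraries, 7.45 and 6.07 CPM, lay below all 4 WT 10 h libraries, 16.5 to 24.4 CPM. In a fit without the 3 pituitary-rich lysates, the vehicle groups were compared, 2 ob/ob lysates against 1 WT 10 h lysate. Depleted Pomc differed by -1.29 (SE 0.37) and depleted Cartpt by -0.11 (SE 0.43), and neither passed the test. The bead-to-depleted difference itself changed between ob/ob and WT by -2.81 on the log2 scale for Pomc (SE 1.14, adjusted p = 0.904, edgeR) and by -1.70 for Cartpt (SE 0.35, unadjusted p = 0.000445, adjusted p = 0.292). The Pomc value averages vehicle and leptin and takes in the pituitary-rich ob/ob leptin lysate, with a log2 bead-to-depleted ratio of 1.81. After vehicle this Pomc ratio was 3.80 and 3.33 in ob/ob and 5.50 in the WT 10 h lysate. DESeq2 called the Cartpt change (adjusted p = 0.0124), and with edgeR 2 of 19682 genes passed (0.0102%).

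**Figure D3:**
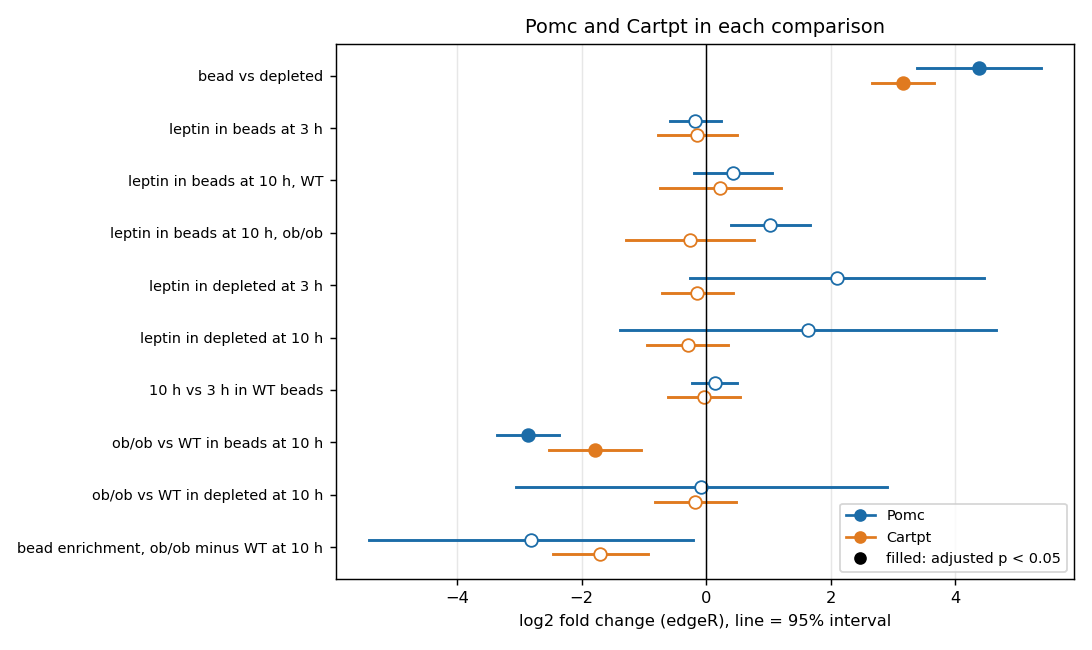
Log2 differences of Pomc (blue) and Cartpt (orange) in 10 comparisons, with 95% intervals from edgeR and filled points where the adjusted p was under 0.05. The filled points are bead against depleted RNA (4.38 and 3.17) and ob/ob against WT beads (-2.86 and -1.78), and the depleted Pomc intervals are the widest.

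In WT, 10 h libraries were set beside 3 h libraries, which also differ in run. In beads Pomc differed by 0.14 (SE 0.17) and Cartpt by -0.04 (SE 0.26). In depleted RNA Pomc differed by -2.14 (SE 1.12, adjusted p = 0.299, edgeR) and by -0.46 (SE 0.21, adjusted p = 0.232) without the pituitary-rich lysates, both of which are at 3 h among WT. Cartpt differed by -0.25 (SE 0.23). Of 19115 genes 7.18% passed in depleted RNA.

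The genes that process, read and regulate POMC and CART were described from lists chosen with earlier results of these data known. Of 9 processing genes, 6 were higher and 1 lower in beads, with a list median of 0.64 against -0.01 for all genes tested. With 77.9% of all genes called in this comparison, the share of this list that was called is near the background. Pcsk1, the convertase that makes ACTH from POMC, was 2.30-fold higher (log2 1.20, SE 0.05) and Pam, which amidates alpha-MSH, 2.23-fold higher. Pcsk2, the convertase that cuts ACTH further, differed by 0.14 (SE 0.04). Furin was lower (-0.28), and Cpe and Prcp did not pass. None of the 9 passed between ob/ob and WT beads, where 0.472% of all genes passed. The list median there was -0.07 and that of all genes 0.01.

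Of the 9 melanocortin receptor and accessory genes, 6 could be tested in beads against depleted RNA, while Mc1r, Mc2r and Mrap had too few counts. Among all genes tested there, 38.6% were higher and 39.3% lower in beads. Agrp, the antagonist made by neighbouring arcuate neurons, was 39.2-fold higher in beads (log2 5.29, SE 0.14). Mc3r was 5.85-fold, Mc4r 1.94-fold and Mrap2, an accessory protein of melanocortin receptors, 1.89-fold higher, whereas Mc5r and Atrn were lower (-1.16 and -0.32). In ob/ob beads Agrp was 553, 745 and 616 CPM against 126 to 168 CPM in WT 10 h beads. These ranges did not overlap, but the difference of 2.06 (SE 0.57) did not pass the test (adjusted p = 0.241, edgeR). Mc3r differed by -0.52 (SE 0.18) and Mc4r by 0.03 (SE 0.20), neither past it.

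Among 12 genes for receptors known on POMC neurons, 8 were higher and 2 lower in beads, with a list median of 0.64 against -0.01 for all genes tested, and their share called is also near the 77.9% of all genes. Lepr, the leptin receptor, was 4.86-fold higher, Ghsr, the ghrelin receptor, 3.58-fold, and Glp1r, the receptor of glucagon-like peptide-1, 2.35-fold. Insr and Oprm1 were lower (-0.85 and -0.80). Between genotypes Glp1r was the only one of the 12 called in beads, where 0.472% of all genes were called. Its level was 11.9 to 15.3 CPM in ob/ob and 21.9 to 30.4 CPM in WT at 10 h, a log2 difference of -0.95 (SE 0.15, adjusted p = 0.0111, edgeR). Lepr was 9.26 to 11.3 CPM in ob/ob and 9.40 to 12.1 CPM in WT, overlapping ranges, and differed by -0.09 (SE 0.20).

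Of 11 transcription factors of POMC neurons, 10 were tested in beads, and 9 were higher. In that comparison 77.9% of all genes were called, 38.6% higher and 39.3% lower. The highest folds were those of Tbx19 (9.83), a factor best known from corticotropes, Nr5a1 (6.76), a marker of the ventromedial nucleus, Tbx3 (6.54) and Prdm12 (3.69), which is needed for Pomc expression. Neurod1 was lower (-0.46). In ob/ob beads Prdm12 was 7.60 to 7.91 CPM, below all 4 WT 10 h values of 14.96 to 24.9 CPM, with a log2 difference of -1.13 (SE 0.20, adjusted p = 0.0211, edgeR). Stat3, the main signal transducer of the leptin receptor, was also called between genotypes (-0.63, SE 0.13, adjusted p = 0.0434, edgeR), where 0.472% of all genes were called. The groups overlapped, with 80.6 and 82.4 CPM in ob/ob vehicle beads, 244 CPM after leptin and 179 to 315 CPM in WT. Stat3 was the only gene of this list called with leptin at 10 h (log2 1.11, adjusted p = 0.00388, edgeR), when 0.022% of all genes passed. Tbx19 in beads was 3.31 and 3.74 CPM in ob/ob vehicle lysates, 11.1 CPM in the ob/ob leptin lysate and 6.25 to 15.97 CPM in WT 10 h lysates. Its highest depleted values, 3.42 and 1.31 CPM, were in the pituitary-rich lysates f2 and m3.

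All 8 tested genes of the arcuate list were higher in beads, among them Npy (26.9-fold), Ghrh (9.89-fold), Th (4.20-fold) and Gal (3.92-fold). Of all genes tested, 38.6% were higher and 39.3% lower in beads. Of the 7 genes listed for neurons outside the arcuate nucleus, Pmch, Hcrt, Avp and Oxt were lower (-1.95, -1.57, -1.68 and -1.98). Crh was higher (3.90-fold) and Trh did not pass. The receptor gene Tacr3, listed with them but not specific to such neurons, was slightly higher (1.11-fold). Pmch marks lateral hypothalamic neurons, many of which also make CART. Between genotypes Pdyn, which encodes prodynorphin, was called (-0.70, SE 0.13, adjusted p = 0.0296, edgeR), and Npy, 1446 to 2303 CPM in ob/ob against 584 to 621 CPM in WT, was not (1.65, SE 0.47, adjusted p = 0.235). None of the 7 genes listed for neurons outside the arcuate nucleus was called between genotypes in beads. No glial or tanycyte marker was called between genotypes in beads either, and 0.472% of all genes were. All 6 astrocyte and 6 oligodendrocyte markers and 4 of 5 tanycyte markers had higher values in ob/ob, with list medians of 0.30, 0.10 and 0.28, while 5 of 6 microglia markers had lower ones (median -0.08). Summed astrocyte markers were 118 to 258 CPM in ob/ob and 78.6 to 155 CPM in WT 10 h beads, and summed oligodendrocyte markers 1333 to 2301 and 1007 to 1829 CPM. Both pairs of ranges overlapped, and the part of these cells in the Pomc and Cartpt differences was not tested.

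**Figure D4:**
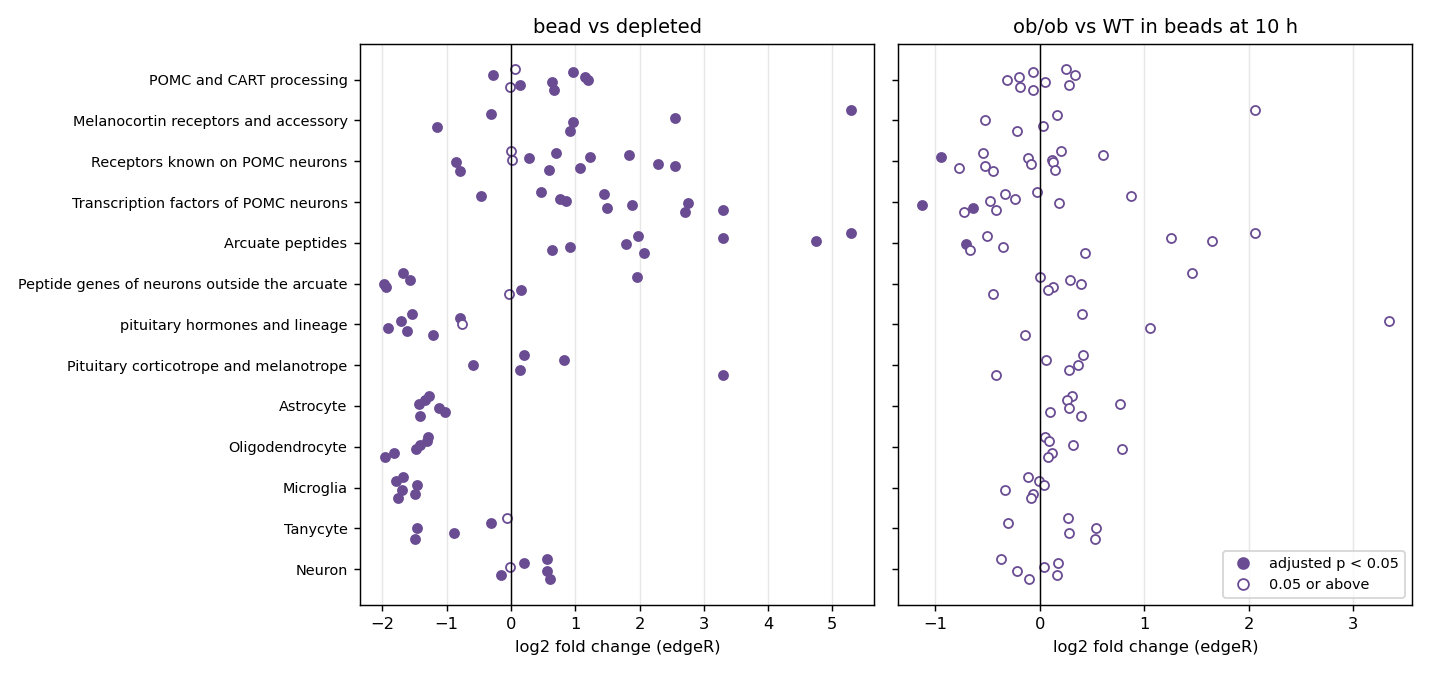
Log2 differences of the list genes in beads against depleted RNA (left) and in ob/ob against WT beads at 10 h (right), 1 point per gene, filled where the adjusted p was under 0.05. At right only Glp1r, Prdm12, Stat3 and Pdyn are filled (-0.95, -1.13, -0.63 and -0.70), where 0.472% of all genes were called.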

How the data were processed

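Hypothalamic poly(A) RNA from beads and from the depleted supernatant of 14 lysates was sequenced with 50-cycle single-end reads and a kit that does not keep strand, per the labels' protocols. STAR 2.7.6a and GRCm38.p6 are named in the submitters' processing notes, while the counting program and annotation were not given in the sources used here. The authors deposited raw read counts for 55487 genes in 28 libraries. From these counts, edgeR 4.0.16 (R 4.3.3) fitted quasi-likelihood models with TMM scaling to genes with at least 10 counts in 3 libraries, and p-values were adjusted over all genes tested (Benjamini-Hochberg, threshold 0.05). Bead and depleted libraries of a lysate shared a lysate term. Within each fraction 1 fit held the 6 groups of genotype, time and treatment, which share one estimate of the spread, so that groups of 1 lysate are assumed to vary like the others. The scripts were tested on simulated counts. Log2 CPM for the correlations used a prior count of 2, and the likeness ranking took genes with a mean of at least 5 CPM. Lysates with over 10 CPM of Gh or Prl in the depleted library are called pituitary-rich.

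Members and gene lists were chosen with earlier results of these data known. Genes named are Pomc, Cartpt, Gh, Prl, list members by role and, for each member and fraction, the 5 most similar profiles. Alternatives were RLE size factors, library totals, no filter on low counts, DESeq2 1.42.0, limma 3.58.1 voom, each lysate left out, pituitary-rich lysates left out, no lysate term, vehicle libraries only, the labels' m or f letter, a glial covariate and WT 3 h libraries alone. Promoter windows are from RefSeq (GRCm38.p6) and coding stretches from GENCODE M21.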

Additional observations from a re-analysis of the deposited data

Results flagged for a closer look

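Among 8 sets of 4 WT 3 h vehicle lysates (Pomc, Cartpt, Gh and Prl in each fraction), 5 held a library that stood apart from its group by Dixon's criterion, which chance alone meets in about 1 of 20 sets. In lysate m3, Gh was 57.0 CPM in beads and 235 CPM in depleted RNA, and Prl 9.71 and 39.5 CPM, far above the other 3 lysates. In lysate f1, depleted Cartpt was 102 CPM against 52.9 to 56.2 CPM in the other 3. Pomc was not flagged in either fraction of this group. All 8 sets come from the same 4 lysates, and every flag but that of Cartpt is lysate m3. The flags are therefore not independent, and their number cannot be set against the rate of 1 in 20.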

How the results depend on the processing

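Of 697 alternative values for the 2 genes and their correlation, 648 kept their direction and their side of the threshold, and none of the 24 that changed sign had passed the test before or after the change. Without the filter on low counts, edgeR estimated infinite prior degrees of freedom for every gene in the fits of the 6 groups. With the filter these were at most 6.67 in beads and 6.87 in depleted RNA. The Pomc posterior variance in depleted RNA was 0.587 without the filter instead of 153. Fits with a lysate term and fits over all strata were not examined in this way. Without the filter several Pomc values passed the threshold, and why was not tested. In beads they were leptin at 10 h 0.73, in ob/ob alone 1.04, and 10 h minus 3 h 0.91. In depleted RNA they were leptin 2.11 at 3 h, 1.63 at 10 h and 1.84 over all strata, and 10 h against 3 h in WT -2.14. Between fractions they were leptin in beads minus depleted -0.85 at 3 h and -0.89 at 10 h, and enrichment in ob/ob minus WT -2.80. For Cartpt the values that passed without the filter were leptin in depleted RNA -0.30 at 10 h and -0.21 over all strata. The others were 10 h against 3 h in depleted WT -0.24 and enrichment in ob/ob minus WT -1.70. DESeq2 also called the last, at -1.70, and the cause was not tested. The Cartpt difference between ob/ob and WT beads lost its call for the vehicle groups within the same fit (-1.54). It also did so for these groups without pituitary-rich lysates (-1.55), an alternative added after seeing the data. Without pituitary-rich lysates, values changed sign for Pomc after leptin in depleted RNA at 3 h (-0.26) and over all strata (-0.012) and in beads over all strata (-0.028), and for Cartpt after leptin in beads at 3 h (0.028) and over all strata (0.10) and for beads minus depleted at 3 h (0.32). With limma voom Cartpt after leptin in beads at 10 h was 0.070. Leaving out 1 lysate at a time gave, for Pomc, -0.24 to -0.031 for leptin in beads at 3 h, 0.0030 to 0.35 over all strata, -0.75 to 2.64 for leptin in depleted RNA at 3 h and -1.86 to 0.42 for beads minus depleted at 3 h. For Cartpt it gave -2.23 to -1.51 for ob/ob against WT beads, -0.39 to 0.00070 for leptin in beads at 3 h, -0.29 to 0.43 at 10 h, -0.82 to 0.63 in ob/ob, -0.20 to 0.079 over all strata, -0.16 to 0.57 for 10 h minus 3 h, -1.05 to 0.41 for ob/ob minus WT, -0.25 to 0.14 for leptin in depleted RNA at 3 h, -0.23 to 0.16 for beads minus depleted at 3 h and -0.10 to 0.093 for 10 h against 3 h in WT beads. Differences at 10 h that use them could not be fitted without the WT 10 h vehicle or the ob/ob leptin lysate. With no replicate block, that is without the lysate term, beads against depleted RNA gave 3.95 for Pomc and 3.17 for Cartpt, and no call of either gene changed. Genes called between ob/ob and WT beads numbered 86, with 228 by DESeq2, 394 without the filter and 40 to 121 with 1 lysate left out. Over all strata leptin in beads called 4, with 140 by DESeq2, 20 by RLE, 613 without the filter, 273 without pituitary-rich lysates and 2 to 82 with 1 lysate left out (82 without m3, 48 without f2). In depleted RNA it called 119, with 723 by DESeq2, 1422 without the filter and 0 to 258 with 1 lysate left out. The WT 10 h vehicle and ob/ob leptin groups hold 1 lysate each, so these groups have no replicate spread of their own.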
